A study of Mus musculus with 16 samples.

Results

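The transcripts of the Hsp40 co-chaperones, also called DnaJ or J proteins, were followed in mouse two-cell embryos. Members were the probe sets whose platform annotation gives 1 gene symbol and whose symbol begins with Dnaja, Dnajb or Dnajc. They were 104 of 45037 transcript probe sets and stood for 44 of 18193 genes, with 4 Dnaja, 13 Dnajb and 27 Dnajc genes. Of these, 90 probe sets and 42 genes (4 Dnaja, 12 Dnajb and 26 Dnajc) passed the filter on low values and were tested. Dnajb7 and Dnajc24 were not tested, and no untested member probe set was above 20.2 on any array. Total RNA of whole embryos was measured on 16 one-colour arrays in 4 groups of 4. In BBB embryos the maternal pronucleus, the paternal pronucleus and the ooplasm were all of strain B6. BCB embryos differed in the maternal pronucleus, which was C3H, while the paternal pronucleus and the ooplasm were B6. Each kind was measured untreated and treated with α-amanitin (α-amantin in the labels), which inhibits RNA polymerase II. All groups thus had B6 ooplasm and a B6 paternal pronucleus. The sources used here do not give the dose, the length of treatment, how the embryos were put together, how many went on an array or whether replicates were separate pools, so p-values measure the spread between these samples. Because whole embryos were measured, fewer cells with a transcript and less of it per cell cannot be told apart.

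Hsp40 proteins carry a J domain that binds an Hsp70 chaperone and makes it hydrolyse ATP, which closes Hsp70 on a client protein. Nucleotide exchange factors then release ADP, and the client leaves. Dnaja proteins have a J domain, a glycine and phenylalanine rich stretch and a zinc finger region, Dnajb proteins lack the zinc finger, and Dnajc proteins share the J domain alone and often work at a single place, such as the endoplasmic reticulum (ER), a mitochondrion or a ribosome. In the mouse, the embryo's own genome is first strongly transcribed at the two-cell stage, while many maternal transcripts of the egg are being degraded.

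Promoters are shown for 4 members. Dnajb9 is shown because it had the largest fall, and Dnajb11, Dnajc3 and Dnajb6 because they were the members whose promoter held a match to one of 3 searched motifs. The sequences are those of RefSeq on GRCm38.p6, from 250 bases before to 50 bases after the start of the gene, 5′ to 3′ on the gene's strand, and the table held a promoter for 36 of the 44 member genes. Capitals mark the motif match. The patterns were searched on both strands. The heat shock element, bound by heat shock factors, was GAA, TTC and GAA with 2 bases of any kind between neighbours. The ER stress element was CCAAT and CCACG with 9 bases between them. The ER stress element II was ATTGG and CCACG with 1 base between them. The first was found in 0.603% of all 32851 promoters, the second in 0.119% and the third in 0.0365%, and each was found in 1 member gene. The third pattern was added after the promoters had been read. Dnajb9 lies on the minus strand (chr12:44210019-44210318). Dnajb11 (chr16:22857595-22857894, plus strand) held the ER stress element II at bases 8 to 18 after its start. Dnajc3 (chr14:118937682-118937981, plus strand) held the ER stress element 87 to 105 bases before its start. Dnajb6 (chr5:29735648-29735947, plus strand) held the heat shock element 34 to 46 bases before its start. A match describes the letters alone and is not a measured binding site.
Dnajb9: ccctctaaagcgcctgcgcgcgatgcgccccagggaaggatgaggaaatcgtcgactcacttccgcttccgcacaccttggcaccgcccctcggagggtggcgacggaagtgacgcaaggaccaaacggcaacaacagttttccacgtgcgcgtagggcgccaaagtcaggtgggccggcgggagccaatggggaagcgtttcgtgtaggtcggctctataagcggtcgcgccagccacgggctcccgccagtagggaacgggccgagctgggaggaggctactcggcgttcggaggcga
Dnajb11: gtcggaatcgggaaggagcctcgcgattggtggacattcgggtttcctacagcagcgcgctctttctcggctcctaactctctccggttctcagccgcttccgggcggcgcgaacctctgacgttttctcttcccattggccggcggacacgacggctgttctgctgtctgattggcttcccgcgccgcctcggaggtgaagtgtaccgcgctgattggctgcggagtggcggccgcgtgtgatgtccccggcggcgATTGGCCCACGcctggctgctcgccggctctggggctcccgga
Dnajc3: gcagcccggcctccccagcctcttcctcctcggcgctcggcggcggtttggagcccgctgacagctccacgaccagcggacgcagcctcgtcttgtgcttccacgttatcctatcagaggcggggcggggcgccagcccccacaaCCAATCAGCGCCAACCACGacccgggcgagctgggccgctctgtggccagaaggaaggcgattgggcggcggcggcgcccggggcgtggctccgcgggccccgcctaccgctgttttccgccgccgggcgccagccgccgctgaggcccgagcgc
Dnajb6: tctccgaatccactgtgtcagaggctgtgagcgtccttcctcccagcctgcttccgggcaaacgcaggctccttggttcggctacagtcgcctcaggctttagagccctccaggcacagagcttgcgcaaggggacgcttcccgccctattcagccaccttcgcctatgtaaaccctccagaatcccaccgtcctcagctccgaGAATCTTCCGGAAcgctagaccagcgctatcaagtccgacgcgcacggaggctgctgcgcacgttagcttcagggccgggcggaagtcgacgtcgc

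The deposited intensities had been scaled per array, and arrays of a group correlated at 0.976 to 0.99 over all probe sets tested. The 12 poly-A control probe sets, for transcripts added to the RNA before labelling, were brighter under α-amanitin by 1.86 (BBB) and 1.88 (BCB) log2 units. The 9 hybridization control probe sets, for material added after labelling, were brighter by 0.55 and 0.81. Differences below are on the deposited scale unless a control scaling is named, and they are of log2(intensity + 16), which understates changes of dim probe sets. Of 9 tested markers of the two-cell embryo and oocyte, Zfp352, a gene of the two-cell stage, was at 4626 ± 579 (SD, n = 4) in untreated BBB, and Gdf9, an oocyte growth factor, at 2107 ± 131. The dimmest was Mos, at 15.7 ± 4.32, and Zscan4c of that list was not tested. The summed intensity of 7 tested cumulus and granulosa cell markers was 101 to 156 on untreated arrays and 235 to 287 on treated arrays, and 4 of them were called higher and 1 lower in BBB. Cyp19a1, Amh and Inhba of that list were not tested. Amh and Inhba were at most 4 and 37.1 on any array. The sum of 5 tested sperm markers was 47.5 to 101.5 on untreated and 83.5 to 131 on treated arrays, with 1 called higher in BBB and 2 in BCB, and the untested Smcp, Tnp2 and Spem1 were at most 2.6, 5.1 and 9.9 on any array. The part of these markers in the results on members was not tested.

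With α-amanitin, Hsp40 transcripts moved in both directions on the deposited scale. In BBB embryos 16 of the 42 member genes (38.1%) were called higher and 15 (35.7%) lower with a limma adjusted p under 0.05, where 37.1% and 33.1% of all 15274 genes tested were, so the shares lay near the background. In BCB embryos 17 members were called higher and 16 lower, beside 39.9% and 31.9% of all genes. Of the 90 probe sets, 35 were called higher and 31 lower in BBB (34.3% and 31.9% of all probe sets) and 35 and 33 in BCB (37.6% and 30.3%). The median difference over the members was 0.038 in BBB and −0.042 in BCB, beside 0.11 and 0.17 over all genes. The differences of the 2 kinds come from separate arrays, but their calls share a variance estimated from all 16 arrays. The calls of the kinds are thus not independent. They were lower in both kinds for 14 members and higher in both for 15, where 29.9% and 33.7% of all genes were. No member was called in opposite directions in the 2 kinds, and 10 of all 15274 genes were. At least 2-fold, 6 members were called higher and 7 lower in BBB (15.9% and 21.9% of all genes) and 7 and 9 in BCB (16.2% and 21.1%). The lowest difference in BBB was −4.56 (Dnajb9) and the highest 1.80 (Dnajb4). By class, the medians in BBB were 0.38 over 4 Dnaja genes, −0.39 over 12 Dnajb genes and 0.10 over 26 Dnajc genes. The 4 treated arrays lay entirely below the 4 untreated ones for 16 members in BBB and entirely above for 13, where 30.7% and 33.9% of all genes did so. The median SE of a member's difference was 0.15. Scaled to the poly-A controls, all 42 members were below 0 in both kinds. That scaling moved all genes down: their median was then −1.17 in BBB and −1.13 in BCB, with 82.4% and 81.1% called lower.

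**Figure D1:**
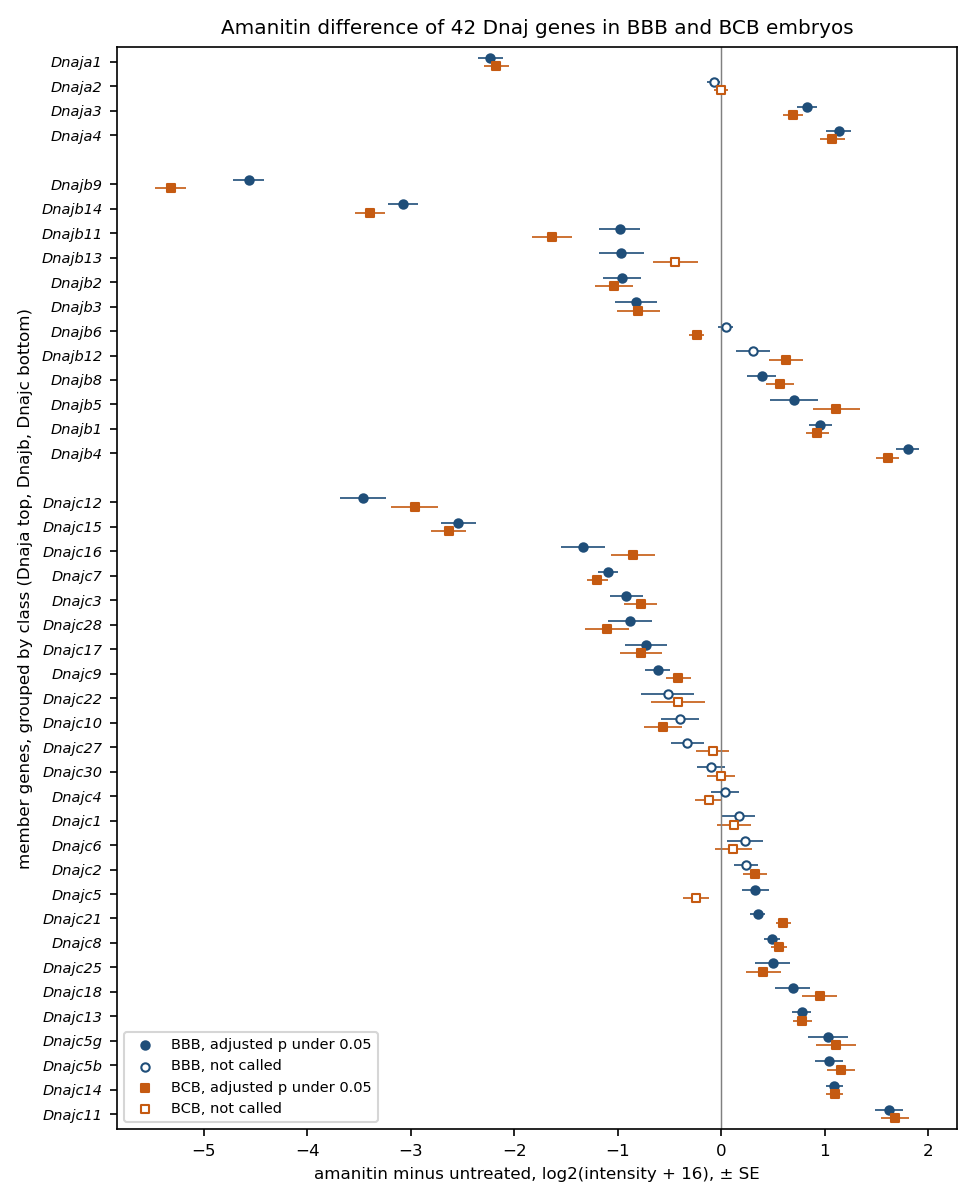
Difference between treated and untreated embryos on the log2(intensity + 16) scale (horizontal axis, ± SE) for each of the 42 tested member genes, grouped by class, with circles for BBB, squares for BCB and open symbols where the limma adjusted p was not under 0.05. Dnajb9 lies furthest to the left at −4.56 and −5.32, and the members to the right of 0 were all below 0 when the arrays were scaled to the poly-A controls.

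Among the Dnaja genes, whose products are general partners of cytosolic and mitochondrial Hsp70, Dnaja1 fell, Dnaja3 and Dnaja4 rose on the deposited scale (both were below 0 with poly-A scaling) and Dnaja2 was not called. Dnaja1, a partner of the cytosolic Hsc70, read 2363, 2373, 2107 and 2102 on the untreated and 619, 435, 462 and 369 on the treated BBB arrays. In BCB it read 2189, 2355, 2553 and 1996 without and 433, 484, 539 and 509 with α-amanitin. All treated arrays lay below all untreated arrays in both kinds, with differences of −2.23 ± 0.119 (SE) and −2.17 ± 0.119 (limma adjusted p = 6.87e-14 and 1.11e-13). This is the probe set with the highest mean of 3, and with the mean of all 3 the difference was −0.077 in BBB (limma adjusted p = 0.481) and −0.088 in BCB (0.409). Dnaja4, a cytosolic relative of Dnaja1, read 221, 264, 228 and 192 on untreated and 531, 507.5, 524 and 487 on treated BBB arrays. In BCB the 4 untreated arrays gave 223, 254, 244 and 175 and the treated ones 509, 437, 504 and 488. The groups did not overlap, and the differences were 1.13 ± 0.12 and 1.07 ± 0.12 (limma adjusted p = 1.15e-08 and 2.93e-08), or −0.64 and −0.72 scaled to the poly-A controls. Dnaja3, the mitochondrial member of the class, rose from 417 ± 14.4 to 755 ± 59.3 in BBB (0.83) and by 0.69 in BCB, and was at −0.98 and −1.13 with poly-A scaling. Dnaja2, the third cytosolic member, was at 3879 ± 140.1 untreated and 3689 ± 164 treated in BBB (limma adjusted p = 0.332). Its 3 other probe sets were called, as described below.

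Of the 12 Dnajb genes, 6 fell and 4 rose in BBB on the deposited scale, beside 33.1% and 37.1% of all genes. The 4 that rose were below 0 with poly-A scaling. Dnajb9, an ER partner of the Hsp70 protein BiP whose transcript is known to rise when unfolded proteins gather in the ER, had the largest fall of all members in both kinds. On the BBB arrays it read 3669, 3604, 3508 and 3616 without α-amanitin and 141, 187, 103 and 128 with it. On the BCB arrays it read 3729.6, 3757.5, 3919.5 and 3691 without and 79.1, 96.1, 49.6 and 101 with it. All 8 untreated arrays lay far above all 8 treated ones. The differences were −4.56 ± 0.15 and −5.32 ± 0.15 (limma adjusted p = 1.21e-17 and 9.31e-19), and 120 of the 15274 genes had a lower value in BBB and 48 in BCB. Dnajb14, an ER membrane protein with its J domain in the cytosol, was chosen after its values were seen. It read 258, 265, 217 and 247 untreated and 12.5, 23.7, 12.3 and 13.2 treated in BBB, and 289, 272, 335 and 254 against 13.6, 13.6, 11 and 12.8 in BCB. The treated level was near the 40th percentile of the arrays (10.8 to 14.1), and the differences were −3.08 and −3.39. Dnajb2, a neuronal and ubiquitin-binding member, fell by 0.96 and 1.04, and Dnajb3, a gene of the testis, by 0.82 and 0.80. Dnajb13, a protein of sperm flagella and cilia, fell in BBB (−0.97) from 27.6 ± 6.19 to 7.2 ± 8.84, and in BCB it was at −0.44 (limma adjusted p = 0.0724). It reached the filter on 7 untreated and 2 treated arrays, too few treated ones to be tested through them, so its test favoured a fall. Leaving out array 1 of BCB, of treated BBB or of treated BCB brought the BCB difference of Dnajb13 under the threshold (0.0416, 0.0336 and 0.0172).

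Dnajb4 and Dnajb1, stress-inducible cytosolic partners of Hsp70, were higher on treated arrays on the deposited scale and below 0 scaled to the poly-A controls (−0.037 and −0.25 for Dnajb4, −0.89 and −0.94 for Dnajb1). Dnajb4 read 629, 637, 776 and 803 on untreated and 2689, 2482, 2352 and 2494 on treated BBB arrays. In BCB it read 767, 708, 563 and 712 and 1851, 2016, 2501 and 2130.0. The groups were far apart in both kinds, with differences of 1.80 ± 0.108 and 1.61 ± 0.108 (limma adjusted p = 5.3e-13 and 4.21e-12), the largest rise of its class on the deposited scale. With poly-A scaling the differences of Dnajb4 were not called (0.863 and 0.245). Dnajb1, a classical target of heat shock factor, read 1246, 1648, 1242.5 and 1298 untreated and 2527, 2591, 3054.5 and 2405 treated in BBB. Its BCB values were 1888, 1449.8, 1642 and 1425 untreated and 3458, 3205, 3086.5 and 2487 treated. No treated array overlapped the untreated ones of its kind, and the differences were 0.96 ± 0.112 and 0.93 ± 0.112 (limma adjusted p = 6.48e-08 and 1.11e-07). Dnajb5, another cytosolic member, was at 0.70 and 1.11 (−0.34 and −0.016 with poly-A scaling), from 14.4 ± 6.93 in untreated BBB. Dnajb8, a testis member known to hold back protein aggregates, was at 0.39 and 0.57 (−0.69 and −0.51 with poly-A scaling). Leaving out BBB arrays 3 and 4 together ended the BBB call of Dnajb8 (limma adjusted p = 0.0914). Dnajb6, which also holds back aggregates and whose promoter is shown above with the heat shock element, was not called in BBB (0.041) and fell by 0.24 in BCB. It was at −0.42 in BBB with quantile normalization and at −1.81 with poly-A scaling. Dnajb12, an ER membrane relative of Dnajb14, rose in BCB (0.62) and was at 0.31 in BBB (limma adjusted p = 0.103), or at −0.99 in BCB and −1.29 in BBB with poly-A scaling.

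**Figure D2:**
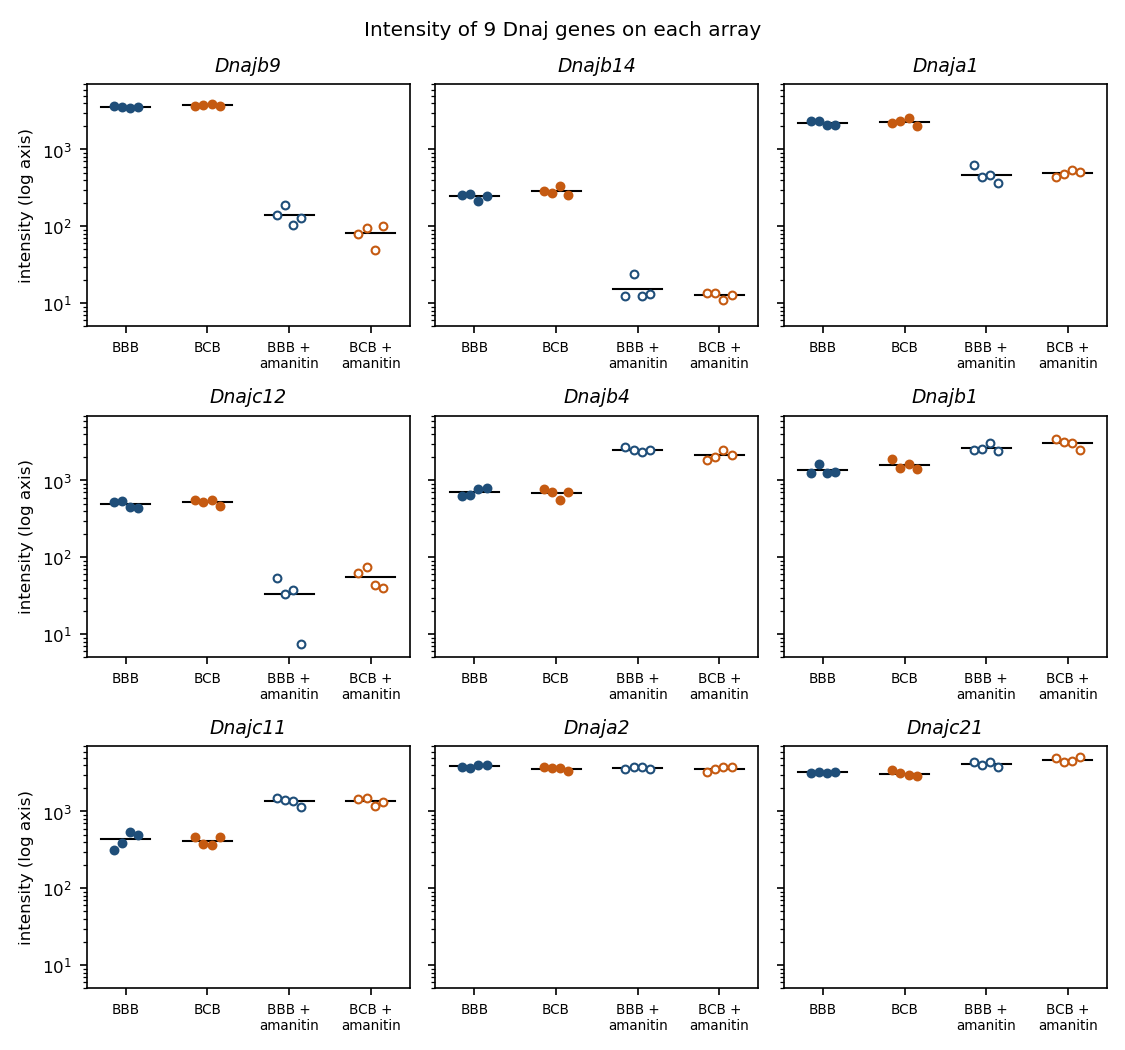
Intensity on each of the 16 arrays (points, logarithmic vertical axis) and group mean (bars) for 9 member genes, with filled points for untreated and open points for treated embryos. The 4 treated arrays lie below the untreated ones of their kind for Dnajb9, Dnajb14, Dnaja1 and Dnajc12, and above them for Dnajb4, Dnajb1, Dnajc11 and Dnajc21, which were below 0 when scaled to the poly-A controls, and they overlap for Dnaja2.

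Of the 26 Dnajc genes, 8 fell and 10 rose in BBB on the deposited scale, beside 33.1% and 37.1% of all genes. In BCB 9 fell and 10 rose, beside 31.9% and 39.9%, so the shares lay near the background. All 26 were below 0 with poly-A scaling, as was the median of all genes. Dnajc12, a partner of the aromatic amino acid hydroxylases, had the largest fall of the class. It read 528, 545, 451 and 435 untreated and 54.6, 33.3, 37.8 and 7.5 treated in BBB, with array 4 the lowest. In BCB it read 551, 531, 557 and 464 and 61.7, 73.8, 43.6 and 40. The differences were −3.46 ± 0.225 and −2.96 ± 0.225 (limma adjusted p = 2.32e-12 and 3.89e-11). Dnajc15, of the mitochondrial inner membrane, fell from 469 ± 81.2 to 68.1 ± 17.9 in BBB (−2.54) and from 491 ± 61.0 to 66.5 ± 18.2 in BCB (−2.63). Dnajc7, which binds both Hsp70 and Hsp90, fell by 1.09 and 1.20, with 903, 875, 775 and 764 on untreated and 356, 416.5, 414 and 338 on treated BBB arrays. Dnajc16, an ER membrane member, was tested through the untreated arrays alone: it was above the filter on no treated array, so a fall (−1.34 and −0.85) was built into its test. The mitochondrial Dnajc28 fell by 0.88 and 1.10.

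Dnajc11, which takes part in shaping the mitochondrial inner membrane, had the largest rise of the class on the deposited scale. It read 319.5, 390.2, 541 and 492 untreated and 1511, 1399.9, 1357.5 and 1131 treated in BBB. In BCB it read 459, 377, 367 and 467 and 1437, 1490.3, 1189.8 and 1340.5. The groups did not overlap, and the differences were 1.62 ± 0.135 and 1.67 ± 0.135 (limma adjusted p = 2.05e-10 and 1.12e-10), or −0.20 and −0.16 with poly-A scaling, where they were not called (0.391 and 0.499). Dnajc14, an ER membrane protein that handles receptors on their way to the surface, was at 1.09 in both kinds and at −0.74 and −0.75 with poly-A scaling. Its 4 treated BBB arrays read 1523, 1490.5, 1591 and 1484 and its untreated ones 654, 712.5, 746.5 and 709. The cysteine string proteins of secretory vesicles included Dnajc5, which was called higher in BBB (0.33, −1.48 with poly-A scaling) and was at −0.24 in BCB (limma adjusted p = 0.0968), and the difference between the kinds was not called (−0.57, limma adjusted p = 0.296). Its testis relatives Dnajc5b (1.04 and 1.15) and Dnajc5g (1.03 and 1.11) were called higher in both kinds and were at −0.68 and −0.59 and at −0.55 and −0.47 with poly-A scaling. Dnajc13, which works on endosomes, was at 0.78 and 0.78 (−1.05 and −1.06 with poly-A scaling). Of 6 members of vesicles and endosomes, 4 were called higher in BBB and 3 in BCB on the deposited scale, beside 37.1% and 39.9% of all genes. All of them were below 0 with poly-A scaling, as was the median of all genes. None of the 6 was called lower on the deposited scale, and Dnajc6, an auxilin that uncoats clathrin vesicles, and Dnajc27 were called in neither kind. Dnajc6 was at 0.23 and 0.12, and Dnajc27 at −0.33 and −0.082.

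Members that work at the ribosome, on splicing or on chromatin had differences between −0.77 and 0.60 in both kinds on the probe set read for each gene. Dnajc2, which works with Hsp70 on nascent chains at the ribosome, read 537, 487, 435 and 419.7 untreated and 513, 617, 524 and 566 treated in BBB, and these ranges overlapped. In BCB it read 527, 382, 381 and 391 and 519.9, 578, 516 and 489.6, where untreated array 1 lay among the treated ones. Its differences were 0.24 ± 0.115 (limma adjusted p = 0.0757) and 0.32 ± 0.115 (0.0166), or −1.57 and −1.49 with poly-A scaling. Dnajc21, a factor of ribosome assembly, read 3207, 3238.5, 3207 and 3268 untreated and 4379, 4021.5, 4398 and 3741 treated in BBB. It was called higher at 0.35 and 0.60 but was at −0.20 and 0.056 with quantile normalization, −0.20 and −0.21 scaled to the hybridization controls and −1.50 and −1.27 scaled to the poly-A controls. Dnajc8, a splicing factor, was likewise called higher (0.49 and 0.56) and was at −0.062 and 0.053 with quantile normalization, −0.065 and −0.25 with the hybridization controls and −1.36 and −1.31 with the poly-A controls. Dnajc17, linked to splicing, fell by 0.73 and 0.77, and quantile normalization ended both calls (limma adjusted p = 0.147 and 0.0523). With the mean of its 2 tested probe sets it was at −1.11 and −1.15 (limma adjusted p = 7.36e-06 and 4.97e-06). The other probe set in that mean reached the filter on 8 untreated and 2 treated arrays, which favoured a fall. Dnajc9, a histone chaperone, fell by 0.61 and 0.41.

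Several calls lay near the threshold and changed when a single array was left out. The BBB call of Dnajc5 ended without BBB array 1, 3 or 4 or treated BBB array 4 (limma adjusted p = 0.051, 0.0621, 0.0723 and 0.125). Dnajc25, an ER member, was called higher at 0.50 and 0.41 (−0.20 and −0.42 with poly-A scaling). It reached the filter on 1 untreated and 7 treated arrays, so its test favoured a rise. Its BBB call ended without BBB array 4 or treated BBB array 4 (0.0688 and 0.0604), and its BCB call ended without any single BCB array (0.053 to 0.0936) and without treated BCB array 1, 2 or 3 (0.0627 to 0.115). Dnajc2 lost its BCB call without BCB array 2 or 3 or treated BCB array 2 (0.0538, 0.0539 and 0.0559) and gained a BBB call without BBB array 1 (0.0366) or BCB array 1 (0.0484). Dnajc22 was called lower in BBB without treated BBB array 1 (−0.79, limma adjusted p = 0.00651), and Dnajc27 without treated BBB array 4 (−0.48, 0.00887). Dnajc10, an ER reductase, was at −0.40 in BBB (limma adjusted p = 0.0576) and fell by 0.56 in BCB. It was called lower in BBB without treated BBB array 3 or 4 or treated BCB array 1 (0.0278, 0.0255 and 0.0446). Leaving out BBB arrays 3 and 4 together ended the BBB calls of Dnajc5 and Dnajc25 (limma adjusted p = 0.204 for both).

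With the mean of all probe sets per gene, the calls of Dnaja1, Dnajc3, Dnajc18 and Dnajb5 ended in both kinds (limma adjusted p = 0.488 and 0.227 for Dnajb5), as did those of Dnajc13 in BBB (0.113) and of Dnajb12 and Dnajb6 in BCB (0.25 and 0.533). Dnajc22 (−0.83 and −0.82), Dnaja2 (−0.37 and −0.26) and Dnajc1 (−0.53 and −0.35) were then called lower in both kinds, and Dnajc10 (−0.48) and Dnajc27 (−0.39) in BBB. Dnajc2 was then called higher in BBB (0.41) and Dnajc5 in BCB (0.20). The means of Dnaja2, Dnajc1 and Dnajb5 include probe sets that reached the filter on untreated arrays alone, so a fall was built into those probe sets. That of Dnajc22 includes 1 that reached it on 8 untreated arrays and 1 treated array. That of Dnajc3 includes 1 that reached it on treated arrays alone. Quantile normalization ended the BCB calls of Dnajc10, Dnajc21 and Dnajc8 (limma adjusted p = 0.267, 0.487 and 0.479), the BBB call of Dnajc8 (0.404) and both calls of Dnajc17. It turned the BBB call of Dnajc21 to lower, and made Dnaja2 lower in both kinds (−0.61 and −0.51) and Dnajb6 lower in BBB. Dnajc1 was then called higher in both kinds (0.52 and 0.45), and Dnajb12 (0.68), Dnajc2 (0.39), Dnajc4 (0.39) and Dnajc6 (0.47) in BBB. With arrays centred on their medians, Dnajb12 (0.46), Dnajb6 (0.22) and Dnajc2 (0.41) were called higher in BBB, and the BCB call of Dnajb6 ended (limma adjusted p = 0.07). A pseudocount of 1 ended the BCB call of Dnajc25 (limma adjusted p = 0.105).

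Of 11 tested ER members, 5 were called lower in BBB (Dnajb9, Dnajb11, Dnajb14, Dnajc3 and Dnajc16) and 6 in BCB, where Dnajc10 joined them, beside 33.1% and 31.9% of all genes. The count includes Dnajc16, whose fall was built into its test. On the deposited scale 3 ER members were called higher in BBB and 4 in BCB, beside 37.1% and 39.9% of all genes. These include Dnajc25, whose test favoured a rise. All 11 were below 0 with poly-A scaling, as was the median of all genes. Dnajb11, a soluble BiP partner that binds unfolded chains, read 178, 204, 174 and 156 on untreated and 98.4, 58.8, 113.5 and 67.0 on treated BBB arrays. In BCB it read 144, 172, 234 and 123 and 35.1, 48.2, 29.8 and 58.9. No treated array reached an untreated one of its kind, and the differences were −0.98 ± 0.197 and −1.64 ± 0.197 (limma adjusted p = 0.000124 and 1.02e-07). Dnajc3, a BiP partner also known to restrain the kinase PERK, read 259.8, 286, 257.5 and 212 untreated and 177, 113, 107 and 117 treated in BBB. In BCB its values were 240.3, 218, 287 and 223.5 and 132.5, 101, 133 and 178. The groups did not overlap on this probe set, with differences of −0.92 ± 0.161 and −0.78 ± 0.161 (limma adjusted p = 2.38e-05 and 0.000167), but over the mean of its 5 tested probe sets they were 0.011 and 0.051. That mean includes a probe set that reached the filter on treated arrays alone. Of the promoters shown above, that of Dnajc3 held the ER stress element, and that of Dnajb11 held the ER stress element II, the pattern added after the promoters had been read. That of Dnajb9, which fell furthest, matched none of the searched patterns. Dnajc1, an ER membrane protein with a cytosolic arm, was not called on the probe set with its highest mean (0.17 and 0.12) and was at −0.53 and −0.35 with the mean of its probe sets. That mean includes probe sets that reached the filter on untreated arrays alone. Dnajc18 was called higher (0.69 and 0.95), was at −0.73 and −0.48 with poly-A scaling, and was not called with the mean of its probe sets (−0.094 and −0.068, limma adjusted p = 0.477 and 0.602). Of 6 mitochondrial members, Dnajc15 and Dnajc28 were called lower and Dnaja3 and Dnajc11 higher in both kinds. Of all genes, 29.9% were called lower and 33.7% higher in both kinds. Dnajc15 and Dnajc28 were also called lower with quantile normalization, median centring and both control scalings. Dnaja3 and Dnajc11 were also called higher with quantile normalization and median centring, and with the hybridization controls Dnajc11 was called higher (1.07 and 0.88) and Dnaja3 was not called (0.29 and −0.093). With poly-A scaling Dnaja3 was called lower (−0.98 and −1.13) and Dnajc11 was not called, as given above. The other mitochondrial members were not called: Dnajc30 was at −0.10 and −0.00066 and Dnajc4 at 0.034 and −0.12. With quantile normalization Dnajc4 was called higher in BBB (0.39, limma adjusted p = 0.0133).

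Probe sets of 1 gene could move in opposite directions. Of the 25 member genes with more than 1 tested probe set, 7 had probe sets called both higher and lower in BBB (28%) and 8 in BCB (32%), beside 12.3% and 12.6% of all 6804 such genes, whose numbers of probe sets were not matched. The 7 were Dnaja1, Dnaja2, Dnaja4, Dnajb6, Dnajc3, Dnajc5 and Dnajc18, the same in both kinds, and Dnajb12 joined them in BCB. The same genes were found, of 23, when only probe sets that reached the filter on treated and on untreated arrays were kept, beside 12% and 12.1% of 6250 genes; this alternative was chosen after seeing the data. For Dnaja1, 1416288_at fell as given above, while 1460179_at, which the platform annotation ties to the same source sequence, read 430.2, 480.2, 548 and 518 untreated and 759.9, 727, 933 and 838 treated in BBB (0.70, and 0.76 in BCB). The third, 1459835_s_at, was at 1.30 and 1.15. Scaled to the poly-A controls the 3 were at −4.04, −1.11 and −0.50 in BBB, all below 0. For Dnaja2, 1417182_at read 1978, 2160.4, 2356 and 2184 untreated and 4616, 4985, 4471 and 4686.5 treated in BBB (1.11, or −0.74 with poly-A scaling). Its 1417183_at, of the same source sequence, read 1136.5, 995, 875 and 934 untreated and 532, 593, 698 and 429 treated (−0.80). In neither case did treated and untreated arrays overlap. For Dnajb6, 1434035_at was at 1.25 and 1.0 in BBB and BCB (−0.60 and −0.86 with poly-A scaling), while 1429776_a_at fell by 0.87 and 0.57. Dnajc5 spanned 0.99 (1448850_a_at, −0.80 with poly-A scaling) to −1.45 (1460498_a_at) in BBB. On the deposited scale the direction of these genes thus depended on the probe set, while with poly-A scaling the probe sets named here for Dnaja1, Dnaja2, Dnajb6 and Dnajc5 were all below 0. Where in the transcript each lies was not analysed here. The ratio of the 3′ to the 5′ control probe set of actin was 7.39 to 8.31 on untreated and 5.69 to 7.11 on treated BBB arrays, and 7.83 to 9.56 and 6.11 to 7.77 in BCB. That of Gapdh overlapped, at 10.5 to 14.5 and 9.46 to 13.3 over both kinds. The part of this ratio in the probe set differences was not tested.

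**Figure D3:**
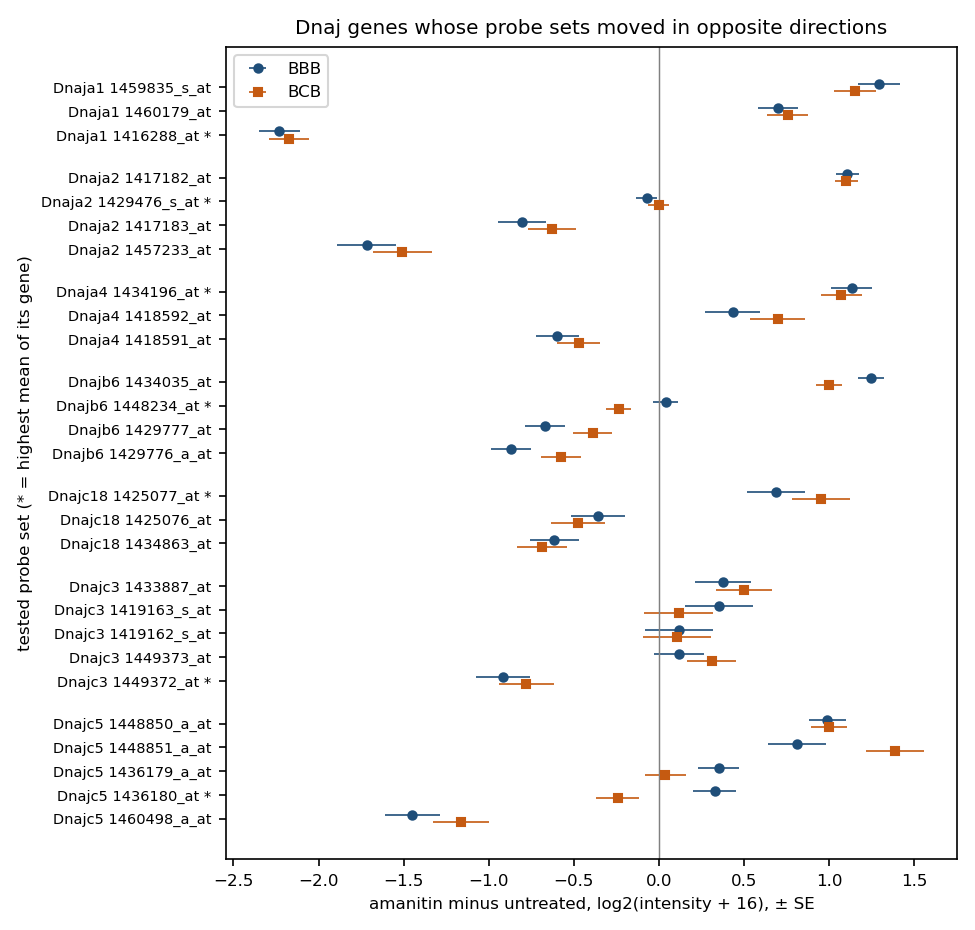
Difference between treated and untreated embryos for every tested probe set of the 7 member genes with probe sets called in both directions (log2(intensity + 16), ± SE, circles for BBB and squares for BCB; an asterisk marks the probe set with the highest mean). Dnaja1 spans −2.23 to 1.30 and Dnaja2 −1.72 to 1.11 in BBB, where the lowest probe set of Dnaja2 reached the filter on untreated arrays alone and the next is at −0.80, and with poly-A scaling the upper ends were at −0.50 and −0.74.

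The partners of the J proteins in the Hsp70 cycle had lower medians than the members. Of 13 tested Hsp70 genes, 10 were called lower and 3 higher in BBB, with a median of −1.88. Of 10 nucleotide exchange factors, 8 were called lower and 1 higher, with a median of −1.61. The median of the 42 members was 0.038. The Hsp70 genes include the relatives Hspa4, Hspa4l, Hsph1 and Hyou1, which also act as exchange factors. In BCB the counts were 10 and 2 for the Hsp70 genes and 8 and 1 for the exchange factors. Beside these lists and those below, 33.1% of all genes were called lower and 37.1% higher in BBB, with a median of 0.11. In BCB 31.9% and 39.9% were. The largest BBB fall and rise among them were those of the stress-inducible Hspa1a (−4.35) and of Hspa12a (1.04, or −0.48 with poly-A scaling), and of the exchange factors Bag3 (−4.26), from 411 ± 42.8 to 6.5 ± 4.58, and Bag4 (1.45, or −0.40 with poly-A scaling). A further list held heat shock factors, Hsp90 proteins and their partners, and the heat shock proteins Hspb1, Hspe1 and Hspd1. Of its 13 tested genes, 8 were called lower and 3 higher (median −0.59). They ranged from Fkbp4 (−3.78), an Hsp90-binding immunophilin, to Ahsa1 (0.90, or −0.95 with poly-A scaling), an activator of Hsp90. Of 20 ER stress genes, 11 were called lower and 5 higher (median −0.33), from Manf (−2.79), a secreted ER protein, to Edem1 (0.90, or −0.88 with poly-A scaling), which sorts misfolded glycoproteins. The lists overlap: the ER stress genes share Hspa5 and Hyou1 with the Hsp70 genes and Hsp90b1 with the list of Hsp90 proteins, each called lower. Of the tested J proteins whose symbols lack the prefix, the clathrin-uncoating Gak (−2.54) fell in BBB. Sec63 (0.74, or −1.02 with poly-A scaling) and the iron-sulfur co-chaperone Hscb (0.95, or −0.75) were called higher on the deposited scale. The list of 5 tested genes also held Dnhd1 and Dnlz, which are not J proteins. Dnhd1 was called higher (0.85, or −0.050 with poly-A scaling) and Dnlz was not called.

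No member gene differed past the threshold between BCB and BBB embryos in any of 3 comparisons. Between untreated BCB and BBB embryos limma called 0 of 42 members, where 0.655% of all genes were called, and 2 members had an unadjusted p under 0.05, as had 7.06% of all genes. With α-amanitin it called 0 members, where 0.0786% of all genes were called, and 7 members had an unadjusted p under 0.05, as had 10.7% of all genes. For the interaction, which is the α-amanitin difference in BCB minus that in BBB, it called 0 members, where 0.255% of all genes were called, and 5 members had an unadjusted p under 0.05, as had 8.05% of all genes. Dnajb9 came nearest. Its treated arrays, listed above, averaged 139.6 ± 35.0 in BBB and 81.4 ± 23.2 (SD, n = 4) in BCB, and all BCB values were below all BBB values, for a difference of −0.68 ± 0.15 (limma adjusted p = 0.0688). Dnajb9 was called with arrays centred on their medians (−0.79, limma adjusted p = 0.0386), without treated BBB array 3 (−0.80, 0.0224) and without treated BCB array 4 (−0.78, 0.0321), and with the fit on only the groups compared its adjusted p was 0.586. Its interaction was −0.75 ± 0.212 (limma adjusted p = 0.212) and was called scaled to the hybridization controls (−0.96, 0.0418). Dnajb11 with α-amanitin was at −0.76 ± 0.197 between BCB and BBB (limma adjusted p = 0.142).

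A single member probe set, which is not the one read for its gene Dnajb14, was called between untreated kinds. The probe set 1429468_at read 18.7, 33.2, 18.4 and 11.1 in BBB and 61.0, 67.9, 63.4 and 27.3 in BCB. The lowest BCB array lay within the BBB range, and the difference was 0.95 ± 0.21 (limma adjusted p = 0.0306, with 0.613% of all probe sets called). The probe set read for the gene was at 0.20 (limma adjusted p = 0.932). The call of 1429468_at ended without BBB array 1, 3 or 4 (limma adjusted p = 0.0936, 0.108 and 0.159), without BCB array 1, 2 or 3 (0.101, 0.155 and 0.145) and without BBB arrays 3 and 4 together (0.601). It also ended with quantile normalization (0.0613), with a pseudocount of 1 (0.672) and with no filter (0.0642).

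On the deposited scale 38.1% of members were called higher and 35.7% lower in BBB. Scaled to the hybridization controls, 7 were called higher (16.7%) and 22 lower (52.4%) in BBB, and 6 (14.3%) and 27 (64.3%) in BCB, beside 21% and 43.5% of all genes in BBB and 15.1% and 48.3% in BCB. Scaled to the poly-A controls, 0 were called higher and 38 lower in BBB and 37 in BCB, beside 82.4% and 81.1% of all genes called lower. The median of the members was then −1.62 in BBB and −1.50 in BCB, while that of all genes was −1.17 and −1.13. The member that stayed nearest to 0 in BBB was Dnajb4 (−0.037), and Dnajb9 was at −6.30. The 15 members called lower in BBB were below 0 under quantile normalization, median centring and both control scalings. Of those called higher in BBB, Dnajc21 and Dnajc8 were also below 0 with quantile normalization, and Dnajc21, Dnajc5 and Dnajc8 with the hybridization controls.

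**Figure D4:**
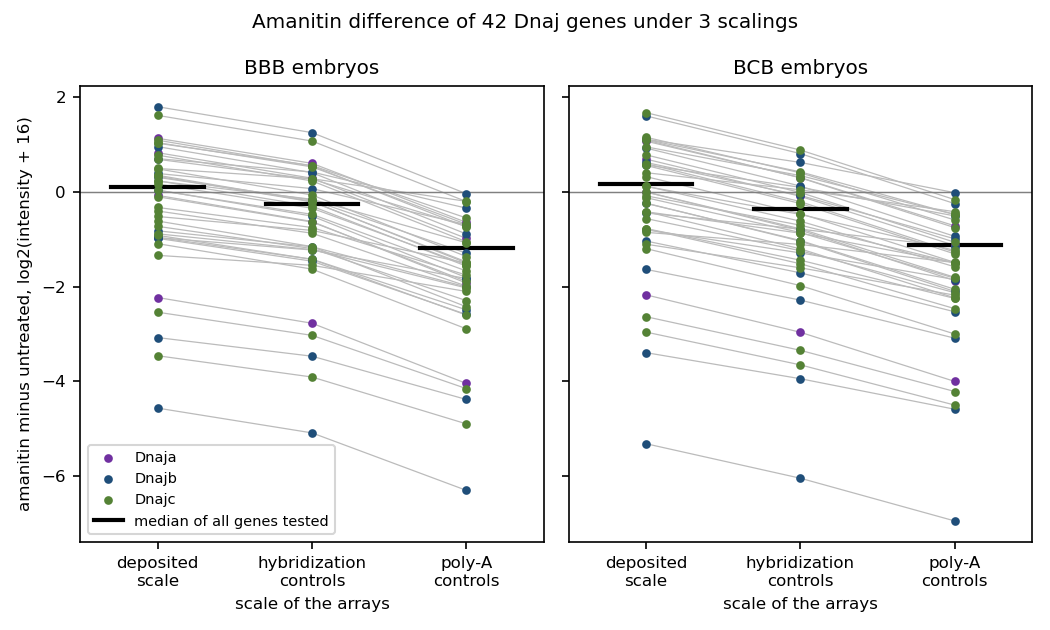
Difference between treated and untreated embryos (log2(intensity + 16), vertical axis) of the 42 member genes in BBB (left) and BCB (right) on the deposited scale, scaled to the hybridization controls and scaled to the poly-A controls, with a grey line per gene, colours by class and a black bar for the median of all genes tested. On the poly-A scale every member lies below 0, and the median of all genes is at −1.17 in BBB and −1.13 in BCB.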

How the data were processed

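The authors deposited intensities on a linear scale with 1 decimal for 45037 transcript and 64 control probe sets on 16 arrays. The mean without the highest and lowest 2% was the same on every array, so the values had been scaled per array. How they were scaled, and by which software, is not given in the sources used here. The labels name Picopure for extraction and an ENZO kit for biotin labelling. The number of arrays limits the precision. No pair of arrays held identical values.

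Members were matched by the symbols of the platform annotation. The filter kept a probe set that reached the 40th percentile of the array in 4 or more of the 16. All 31953 such probe sets entered 1 fit of log2(intensity + 16) with a mean per group over all 16 arrays in limma 3.58.1 (R 4.3.3; lmFit, eBayes with an intensity trend), with Benjamini-Hochberg adjustment over all of them and a threshold of 0.05. The tested probe set with the largest mean log2 value stood for its gene. The 5 contrasts were α-amanitin against untreated in each kind, BCB against BBB in each treatment, and the interaction. The fit was tested on simulated data.

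Array values are given for the called member with the largest fall and rise of each class (groups not overlapping), for Dnajb1, Dnajb9, Dnaja1, Dnajc2, Dnajb11 and Dnajc3, and for probe sets called in opposite directions. Those of Dnajb14, Dnajc7, Dnajc14 and Dnajc21 were added after their values were seen. The members and lists were chosen with earlier results of these data known. Alternatives were other normalizations, pseudocounts, filters, probe set rules, fits and left-out arrays.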

Additional observations from a re-analysis of the deposited data

Results flagged for a closer look

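Over 168 groups of 4 arrays (42 member genes in 4 groups), a single array lay far from the other 3 in 12, by a gap that exceeded Dixon's 95% critical value on the log2 scale. Chance alone gives this in about 1 group in 20. In untreated BBB embryos Dnajb1 read 1648 on array 2 and 1242.5 to 1298 on the others and Dnajc16 read 39.2 on array 1 and 24.9 to 26.4 on the others. In untreated BCB embryos Dnajc2 read 527 on array 1 and 381 to 391 on the others. In treated BBB embryos Dnajb13 read 20.4 on array 1 and 1.9 to 3.9 on the others, Dnajb14 read 23.7 on array 2 and 12.3 to 13.2 on the others, Dnajc1 read 287 on array 1 and 160.4 to 175 on the others and Dnajc13 read 1070.4 on array 1 and 1225 to 1250.2 on the others. In treated BCB embryos Dnajb3 read 4.7 on array 3 and 21.0 to 22.2 on the others, Dnajc15 read 93.7 on array 1 and 54.9 to 59.1 on the others, Dnajc17 read 26.7 on array 3 and 70.9 to 83.1 on the others, Dnajc5 read 369.9 on array 2 and 515 to 534 on the others and Dnajc9 read 407 on array 4 and 600.3 to 612.5 on the others.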

How the results depend on the processing

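Counts of members called are given for α-amanitin against untreated. Scaled to the hybridization controls they were 7 higher in BBB and 6 higher and 27 lower in BCB, with 1 member called lower for the interaction. With the poly-A scaling, counts were 0 higher and 38 lower in BBB and 0 higher and 37 lower in BCB. With a minimum change of 2-fold they were 6 and 7 in BBB and 7 and 9 in BCB. With arrays centred on their medians, 1 member was called lower between treated BCB and BBB. Leaving out 1 array at a time gave 14 to 17 higher and 15 to 17 lower in BBB, 15 to 17 higher and 16 to 17 lower in BCB, and 0 to 1 lower between treated BCB and BBB. The other alternatives listed kept each count within 1.5 times its reported value. Deviations of same-numbered arrays correlated at −0.0871 to 0.107, above 0.1 in 1 of 16 pairs, and the labels name no shared batch, so the numbers were not taken to pair arrays. The replicate block gave 16 higher and 15 lower in BBB and 16 and 16 in BCB, ended the BCB call of Dnajc25 (0.41, limma adjusted p = 0.0538) and changed no other call of a member gene in these 2 comparisons. Values are listed as turned where the sign changed and the member was called in either setting, so sign changes without a call are left out. With quantile normalization, values that turned were Dnajb6 −0.42, Dnajc21 −0.20 and Dnajc8 −0.062 in BBB. Scaled to the hybridization controls, values that turned were Dnajb6 −0.51, Dnajc21 −0.20, Dnajc4 −0.47, Dnajc5 −0.21 and Dnajc8 −0.065 in BBB, and Dnaja3 −0.093, Dnajb12 −0.075, Dnajc1 −0.62, Dnajc13 −0.012, Dnajc2 −0.46, Dnajc21 −0.21, Dnajc6 −0.47 and Dnajc8 −0.25 in BCB. Scaled to the poly-A controls, values that turned were Dnaja3 −0.98, Dnaja4 −0.64, Dnajb1 −0.89, Dnajb12 −1.29, Dnajb4 −0.037, Dnajb5 −0.34, Dnajb6 −1.81, Dnajb8 −0.69, Dnajc1 −1.54, Dnajc11 −0.20, Dnajc13 −1.05, Dnajc14 −0.74, Dnajc18 −0.73, Dnajc2 −1.57, Dnajc21 −1.50, Dnajc25 −0.20, Dnajc4 −1.67, Dnajc5 −1.48, Dnajc5b −0.68, Dnajc5g −0.55, Dnajc6 −1.07 and Dnajc8 −1.36 in BBB, and Dnaja3 −1.13, Dnaja4 −0.72, Dnajb1 −0.94, Dnajb12 −0.99, Dnajb4 −0.25, Dnajb5 −0.016, Dnajb8 −0.51, Dnajc1 −1.58, Dnajc11 −0.16, Dnajc13 −1.06, Dnajc14 −0.75, Dnajc18 −0.48, Dnajc2 −1.49, Dnajc21 −1.27, Dnajc25 −0.42, Dnajc5b −0.59, Dnajc5g −0.47, Dnajc6 −1.23 and Dnajc8 −1.31 in BCB. With probe sets of a gene averaged, values that turned were Dnajc1 −0.53, Dnajc18 −0.094 and Dnajc3 0.011 in BBB, and Dnajc1 −0.35, Dnajc18 −0.068, Dnajc3 0.051 and Dnajc5 0.20 in BCB. The average of Dnajc1 includes probe sets that reached the filter on untreated arrays alone, and that of Dnajc3 a probe set that reached it on treated arrays alone. For these values the cause was not tested, except that the control scalings lower treated arrays by construction. Dim members limit what can be read: 33 of 42 were at or above the filter on all 16 arrays.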

Other observations

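Dnajc19, a J protein of the mitochondrial import motor, was outside the members because its 3 probe sets also carry the symbol of its pseudogene, so their signal cannot be assigned to either. The probe set 1423625_a_at read 45.8 ± 7.81 (SD, n = 4) in untreated and 50.6 ± 11.8 in treated BBB embryos (0.10, limma adjusted p = 0.626), and 44.2 ± 6.68 and 64.05 ± 17.7 in BCB (0.39, 0.0479). Another, 1442182_at, was at 0.091 in BBB and 0.48 in BCB (limma adjusted p = 0.707 and 0.039), and the third, 1425372_at, was not tested.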
